A study of Mus musculus with 35 samples.

Results

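The genes of glucose uptake and glycolysis were followed through chromatin immunoprecipitation and sequencing (ChIP-seq) of mouse pre-B cell progenitors. The set holds 32 genes of the 23852 gene names in the peak lists. It takes in carriers of glucose and lactate, every step of glycolysis, enzymes of the pentose phosphate pathway, pyruvate dehydrogenase with its kinases, and regulators of flux. A peak belonged to a gene when the deposited annotation named that gene for it, and covered length was summed per gene and target.

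The cells were stromal-adherent pre-B cell progenitors at passages 3 to 8, which grow attached to stromal cells. WT cells came from wild-type mice. IKDN cells came from mice with a dominant-negative form of Ikaros under CD2-Cre, a recombinase active in developing lymphocytes; the labels do not say how many mice or lines were used. The 35 libraries comprised 2 inputs, not used here, and 33 with peak lists, 16 WT and 17 IKDN. There were 15 targets mapped in both genotypes, while Ikaros was mapped in WT only and LHX2 and LMO2 in IKDN only. Each genotype had 1 library per target, so no difference below has a replicate check, no standard deviation exists, and no test was run.

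Glycolysis splits glucose into pyruvate, yielding energy and building blocks; glucose transporters feed it, hexokinases trap glucose in the cell, and lactate dehydrogenases and lactate carriers clear its end product. In B cell precursors the transcription factors PAX5 and Ikaros are known for holding glucose uptake and energy supply down, in part through genes such as Slc2a1 and Hk2 and through Txnip, whose product restrains glucose uptake. Acetylation of histone H3 at lysine 27 (H3K27ac) marks active promoters and enhancers, H3K4me1 and H3K4me2 mark enhancers and promoters, H3K4me3 marks promoters, H3K36me3 marks transcribed gene bodies, and H3K27me3 marks chromatin silenced by Polycomb. RNAPII here is RNA polymerase II phosphorylated at serine 5, the form found at starting and early elongating transcription. MED1 is a subunit of the Mediator complex.

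The promoters of 6 members, where PAX5 or Ikaros occupancy is described below, are given from RefSeq (GRCm38.p6), 5′ to 3′ on the strand of the gene, 250 bases before to 50 after the start site. Capitals mark the Ikaros core GGGAA and the hypoxia response core ACGTG on either strand, the first reading TTCCC and the second CACGT on the opposite strand. Slc2a1 and Hk2 are shown as the transporter and hexokinase with opposite acetylation, Slc16a3, Ldha and Ldhb as lactate genes that had added PAX5 peaks, and Txnip as the brake on uptake.
Slc2a1 (chr4:119108495-119108794, plus strand): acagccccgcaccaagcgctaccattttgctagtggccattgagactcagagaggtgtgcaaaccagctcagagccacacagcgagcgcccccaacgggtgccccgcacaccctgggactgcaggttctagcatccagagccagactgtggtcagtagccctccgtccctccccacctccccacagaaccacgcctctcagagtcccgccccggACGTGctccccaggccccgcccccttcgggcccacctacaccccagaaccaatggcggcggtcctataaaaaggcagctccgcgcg
Slc16a3 (chr11:120948817-120949116, plus strand): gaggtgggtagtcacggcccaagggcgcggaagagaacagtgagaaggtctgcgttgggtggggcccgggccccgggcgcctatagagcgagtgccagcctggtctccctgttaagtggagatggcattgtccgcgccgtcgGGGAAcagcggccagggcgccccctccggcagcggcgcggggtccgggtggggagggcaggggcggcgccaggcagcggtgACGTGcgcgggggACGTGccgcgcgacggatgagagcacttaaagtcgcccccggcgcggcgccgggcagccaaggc
Hk2 (chr6:82774405-82774704, minus strand): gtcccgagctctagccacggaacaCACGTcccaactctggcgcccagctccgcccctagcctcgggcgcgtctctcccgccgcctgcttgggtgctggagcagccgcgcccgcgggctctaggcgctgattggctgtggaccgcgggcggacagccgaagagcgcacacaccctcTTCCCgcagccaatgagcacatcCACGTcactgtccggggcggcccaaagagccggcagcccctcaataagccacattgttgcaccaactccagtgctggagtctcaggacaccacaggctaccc
Ldha (chr7:46845554-46845853, plus strand): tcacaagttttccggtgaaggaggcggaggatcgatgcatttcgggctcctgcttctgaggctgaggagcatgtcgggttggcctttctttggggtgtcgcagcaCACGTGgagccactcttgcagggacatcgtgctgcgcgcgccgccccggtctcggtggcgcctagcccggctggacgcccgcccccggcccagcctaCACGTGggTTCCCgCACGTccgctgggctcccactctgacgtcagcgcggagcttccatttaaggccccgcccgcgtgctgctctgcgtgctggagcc
Ldhb (chr6:142507908-142508207, minus strand): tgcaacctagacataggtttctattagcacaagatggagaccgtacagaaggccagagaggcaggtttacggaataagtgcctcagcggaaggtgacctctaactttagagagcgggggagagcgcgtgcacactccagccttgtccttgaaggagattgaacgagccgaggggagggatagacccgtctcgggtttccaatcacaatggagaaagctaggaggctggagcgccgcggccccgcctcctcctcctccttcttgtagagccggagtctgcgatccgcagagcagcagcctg
Txnip (chr3:96557707-96558006, plus strand): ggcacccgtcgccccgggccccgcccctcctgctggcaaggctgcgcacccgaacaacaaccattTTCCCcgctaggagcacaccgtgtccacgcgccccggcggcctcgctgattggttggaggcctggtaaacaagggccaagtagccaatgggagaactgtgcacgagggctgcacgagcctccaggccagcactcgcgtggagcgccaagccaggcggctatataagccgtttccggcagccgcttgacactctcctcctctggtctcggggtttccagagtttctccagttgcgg
In Slc2a1 the ACGTG match ended 32 bases before the start, and Slc16a3 held matches ending 23 and 10 bases before it. In Hk2 an Ikaros core lay 75 to 71 bases before the start between ACGTG matches. Ldha held 5 ACGTG matches, 4 of them within a pair of E-boxes, and Ldhb held neither motif. PAX5 peaks covered at least 1 base of the promoter at 25 of 31 members in WT (80.6%), against 28.4% of all promoters. In IKDN they did so at 20 of the 25 on complete chromosomes (80.0%), against 31.5%. Ikaros covered 18 of 31 (58.1%), against 20.8%. Each member counted with 1 promoter, although some had more RefSeq entries, Pfkm 4, whereas the background counted every entry. The member and background shares are therefore not strictly alike. Of the printed bases at Slc16a3 PAX5 covered 0 in WT and 294 in IKDN, at Ldhb 0 and 167, at Hk2 241 and 288, at Ldha 256 and 246, and at Txnip 253 and 274. Slc2a3 was matched to no entry of the table.

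A PAX5 motif, GCGTGAC on either strand, lay in 2 of the 31 member promoters in the RefSeq table (6.45%), those of Hk1 and Eno1, against 2.09% of all 32851 promoters of that length. The Ikaros core GGGAA lay in 21 of 31 (67.7%) against 62.7% of all promoters. The hypoxia response core ACGTG, which is also part of the E-box CACGTG, lay in 15 of 31 (48.4%) against 19.6%. Member promoters were richer in G and C, with a median of 63.3% against 52.7% over all promoters. Among the 7281 promoters within 5 percentage points of the members' median, 26.6% held ACGTG. The E-box itself lay in 2 members, Slc16a1 and Ldha (6.45% against 7.15%), the ETS motif CCGGAA in 5 (16.1% against 14.9%) and the TEAD motif GGAATG in 2 (6.45% against 14.7%). These are matches of letters and not measured sites, and here too a single promoter per member is set against every entry.

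PAX5 lay at the start site of nearly every member in both genotypes. The IKDN PAX5 list stopped at 32.6 Mb of chromosome 9 and held no peak on chromosome X, so 26 members were compared; Pkm, Pfkfb4, Pgk1, G6pdx, Pdha1 and Pdk3 were left out. A PAX5 peak within 2500 bp of the start site was present at 23 of the 26 in WT, where 50.3% of all gene names had one. In IKDN it was present at all 26, against 55.6% of all gene names. The promoter peak overlapped between genotypes at 21 members. It was found in IKDN only at Slc2a3, Hk3 and Ldhb.

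A member was called higher or lower in IKDN when its covered length differed by at least 1.5 times and by at least 200 bp for transcription factors and MED1, or 1000 bp for histone marks and RNAPII. These are thresholds of size and not tests. PAX5 was higher at 5 of the 26 members, Slc16a3, Hk3, Ldha, Ldhb and Pdk1, in a list where 19.7% of all gene names were higher. It was lower at none of them, where 10.3% of all gene names were lower. The share of members called higher was near the background. PAX5 peaks had a single width within each list, 340 bp in WT and 320 bp in IKDN, so covered length follows the number of peaks. That number went from 86 in WT to 108 in IKDN over the 26 members, while the lists held 73183 and 85529 peaks on the compared chromosomes. Peaks were more numerous in IKDN at 12 of the 26 members, against 36.6% of all gene names. They were fewer at 1, Pfkp, with 24 in WT and 19 in IKDN, against 16.6%, and equal at 13. By a fold of 1.5 in the number of peaks 9 members were higher, against 25% of all gene names.

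The 12 members with more PAX5 peaks in IKDN were the 4 carriers, the 3 hexokinases, both lactate dehydrogenases, Pfkl, Pgd and Pdk1. Ldhb, the lactate dehydrogenase subunit of oxidative tissues, had 0 PAX5 peaks in WT and 5 in IKDN, 1 of them centred 29 bp downstream of its start site. All of these were low-scored, placed between 81.5% and 99.6% of the way down the list. Ldha, the subunit favoured in glycolytic cells, had 2 in WT and 5 in IKDN. Of its 3 added peaks, 1 lay 23 bp upstream of the start site beside a peak present in both genotypes, and the others lay 6802 and 7561 bp upstream inside H3K27ac regions of both genotypes. Slc16a3, a carrier that exports lactate, had 1 peak in WT, 1820 bp inside the gene. IKDN had 2, at 1928 bp inside the gene and at 85 bp upstream. Hk3, a hexokinase of blood cells, had 0 in WT and 3 in IKDN, the nearest 1435 bp upstream. Pdk1, which switches off pyruvate dehydrogenase, had 4 in WT and 7 in IKDN. Among the top-scored 50% of the lists neither Ldha nor Pdk1 had more PAX5 coverage in IKDN.

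**Figure D1:**
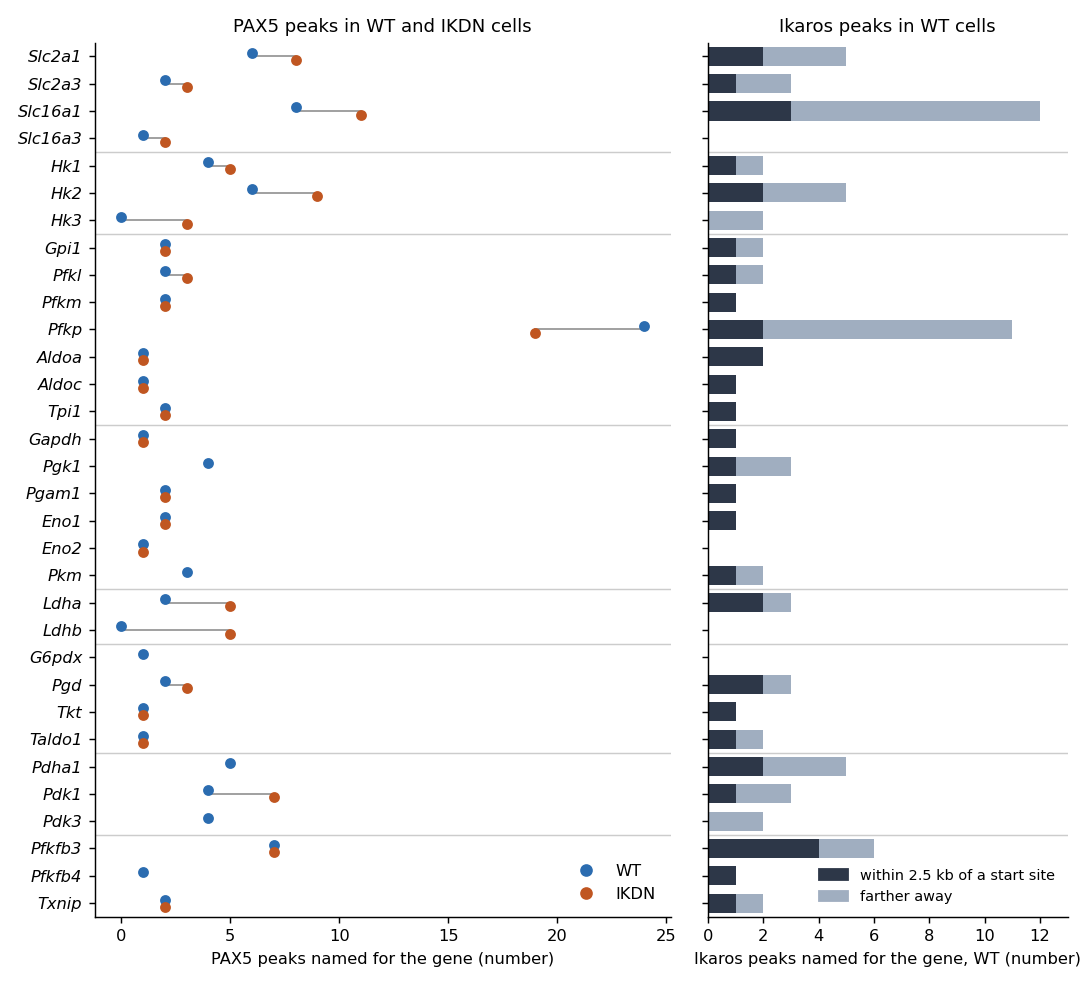
Number of peaks at each member (horizontal axis) for PAX5 in WT, PAX5 in IKDN and Ikaros in WT, 1 library each; members on chromosomes missing from the IKDN PAX5 list have no IKDN value. Peaks are counted by assigned name, at any distance. Ldhb and Hk3 go from 0 PAX5 peaks in WT to 5 and 3 in IKDN, and Pfkp is the member with fewer, 24 against 19. Within 10 kb of Pfkp PAX5 covers 1.02 kb in WT and 0.96 kb in IKDN.

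Ikaros in WT cells was also frequent at these genes. At least 1 Ikaros peak was assigned to 28 of the 32 members, against 61% of all gene names, and 26 had one within 2500 bp of the start site, against 41.1%. The members held 85 Ikaros peaks in all. None was assigned to Slc16a3, Eno2, Ldhb or G6pdx. Slc16a1, a lactate and pyruvate carrier, had the most with 12, and Pfkp had 11. PAX5 and Ikaros promoter peaks were both present in WT at 25 members.

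Of the members' 104 WT PAX5 peaks, 43 overlapped an Ikaros peak by at least 1 bp, 41.3% (exact 95% binomial interval 31.8 to 51.4, counting error only), against 26.1% of the WT PAX5 peaks of other genes. Among promoter peaks the shares were 58.8% for members and 53.6% for other genes. Among all remaining peaks they were 32.9% and 20.8%. The share for members was 30.8% when at least 50% of the PAX5 peak had to be covered, against 17.8% for other genes, and 30.0% among the top-scored 50% of both lists, against 23.6%. Peaks of 1 gene share their locus and are not independent. Of the 86 WT PAX5 peaks at compared members, 68 overlapped an IKDN PAX5 peak, 79.1% of the WT peaks (other genes 80.7%) and 63.0% of the 108 IKDN peaks (other genes 69.0%). The 40 IKDN peaks without a WT counterpart overlapped IKDN H3K27ac in 12 cases, 30.0% against 29.0% for other genes. Of the WT peaks, the share kept at other genes lay inside the members' interval (69.0 to 87.1), and so it did for the IKDN peaks (53.1 to 72.1).

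H3K27ac was higher in IKDN at 7 of 32 members, where 14.1% of all gene names were higher, and lower at 3, where 10.8% were lower. The higher genes were Slc2a3, Hk1, Hk2, Gpi1, Aldoc, Gapdh and Pfkfb4, and the lower ones Slc2a1, Pfkl and Pfkm. All 7 and 3 were among the 28 members with a peak in either list. Among gene names with a peak in either list 21.9% were higher and 16.8% lower. Within the gene and 10 kb flanks, 5 members were higher (background 12.9%) and 1 was lower (8.83%), since Slc2a3, Gpi1, Pfkl and Pfkm were not called there. RNAPII was higher at 8, Hk2, Gpi1, Pfkm, Pgam1, Ldha, Pgd, Pdk1 and Pfkfb4, against 17.4% of all gene names. It was lower at 5, Slc2a1, Hk3, Pfkp, Aldoa and Pfkfb3, against 15.9%. Among gene names with an RNAPII peak the background was 27.2% higher and 24.8% lower. Wide regions were assigned by their centre, so a region can be credited to a neighbour, and for some genes lengths inside the RefSeq gene body are given beside the assigned ones. Within gene bodies alone RNAPII was higher at 11 members (background 12.9%) and lower at 4 (12.4%). Ldha and Pfkm were no longer called higher there, while Slc16a3, Aldoa, Pgk1, Eno1 and Tkt were.

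The glucose transporters differed from each other. Slc2a1 encodes GLUT1, the widespread glucose carrier. Its H3K27ac covered 5.22 kb in WT against 3.23 kb in IKDN, and its RNAPII covered 18.5 kb in WT against 10.3 kb in IKDN. Both were called lower in IKDN, although among the top-scored 50% of the lists H3K27ac was 296 bp longer in IKDN. H3K36me3 over the gene was not called, with 14.2 kb in WT against 20.4 kb in IKDN. The promoter region was retained, at 2034 bp in WT and 2330 bp in IKDN, and so was one 10.2 kb inside the gene. Within an intron, 3 regions were listed in WT only, centred 16.4, 18.5 and 20.6 kb from the start site. The middle one held an Ikaros peak at 18710 bp and a PAX5 peak at 18687 bp in WT, and PAX5 remained at 18614 bp in IKDN without H3K27ac. In IKDN a LMO2 peak lay at 18720 bp and a TEAD1 peak at 18691 bp. At the promoter, the WT PAX5 peak centred 76 bp downstream of the start overlapped an Ikaros peak at 36 bp, while the IKDN PAX5 peak centred 443 bp downstream and did not overlap the WT one. In the promoter sequence printed above, PAX5 covered 143 of 300 bases in WT and 0 in IKDN.

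Slc2a3 encodes GLUT3, a carrier with high affinity for glucose. H3K27ac covered 0 kb in WT against 2.01 kb in IKDN, as a 1386 bp region at the start site and a 625 bp region 18.7 kb upstream. H3K4me3 covered 1.88 kb in WT against 3.07 kb in IKDN. H3K36me3 covered 0 kb in WT against 6.99 kb in IKDN, and RNAPII 0 kb in WT against 0.771 kb in IKDN. All 4 were longer in IKDN, with RNAPII under the 1000 bp threshold. H3K27me3 lay over the start region in WT, as a 1153 bp region centred 591 bp downstream, and no IKDN region assigned to the gene was listed there. Its total was nevertheless called higher, 2.62 kb in WT against 5.71 kb in IKDN, through regions 23.2 to 38.2 kb upstream. An IKDN PAX5 peak lay 246 bp upstream of the start, where WT had an Ikaros peak 16 bp upstream, and an IKDN LHX2 peak lay 14 bp downstream. Both WT PAX5 peaks of the gene, at 2595 bp downstream and 8155 bp upstream, were absent from IKDN. The RefSeq model of Slc2a3 spans 74.6 kb and takes in the peaks of Foxj2, so its gene-body lengths were not used.

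**Figure D2:**
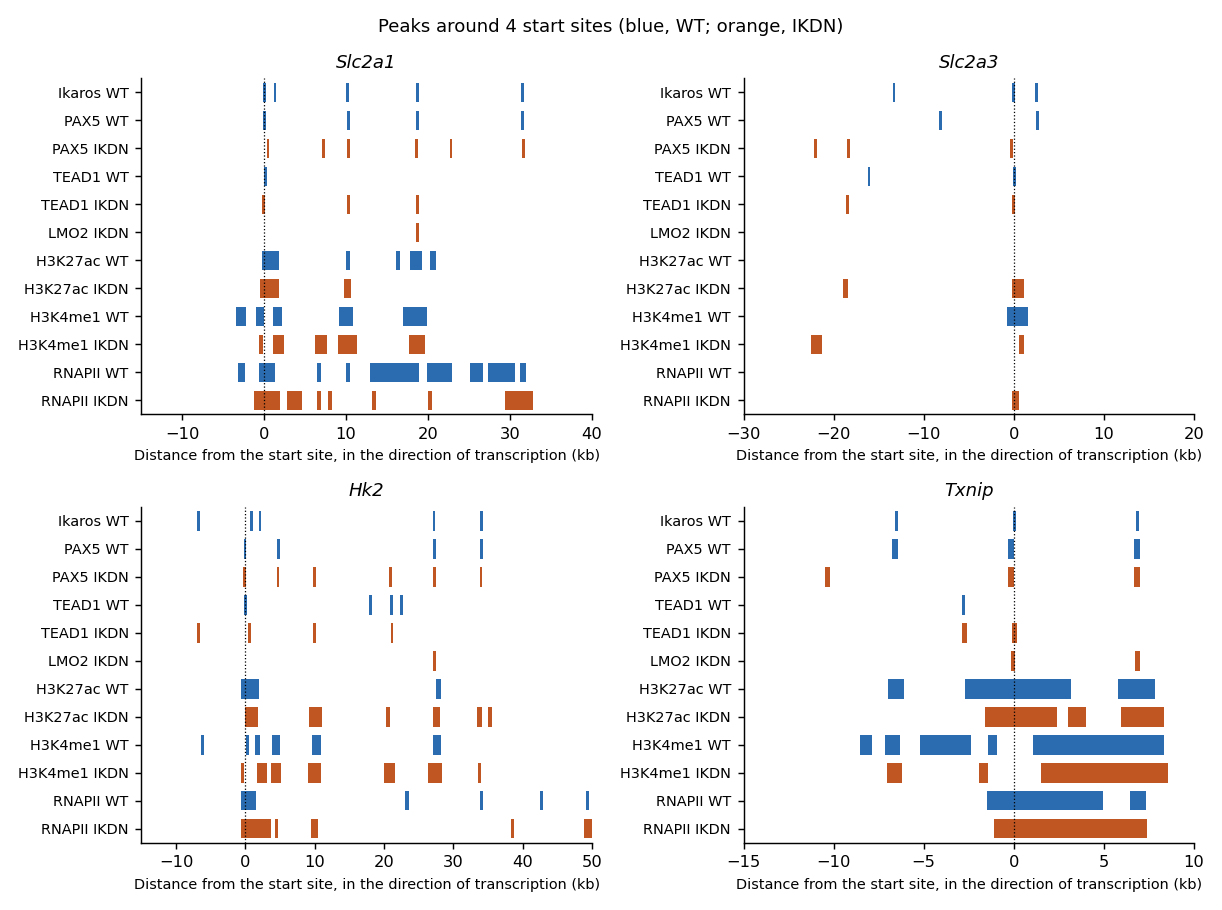
Peaks around the start sites of Slc2a1, Slc2a3, Hk2 and Txnip, by distance from the start in kb along the direction of the gene; each row is 1 peak list, WT or IKDN, and each bar 1 peak of any assigned gene, drawn at no less than 0.6% of the axis. The H3K27ac regions of Slc2a1 from 16.4 to 20.6 kb appear in WT only and those of Hk2 at 10.1, 20.6, 33.8 and 35.3 kb in IKDN only, and the Slc2a3 start site carries H3K27ac in IKDN only.

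The lactate carriers differed little in histone marks between genotypes. Slc16a1 was called in none of the marks or RNAPII, with H3K27ac at 10.5 kb in WT against 12.6 kb in IKDN. Slc16a3 had H3K27ac at 0 bp in WT against 500 bp in IKDN, under the threshold. Its H3K4me2 was called higher, at 2.20 kb in WT against 3.43 kb in IKDN.

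The 3 hexokinases, which phosphorylate glucose, went different ways. Hk2, the inducible hexokinase, had H3K27ac at 3.37 kb in WT against 6.54 kb in IKDN. Intronic regions 10.1, 20.6, 33.8 and 35.3 kb inside the gene were listed in IKDN only. PAX5 peaks at 9989 and 20984 bp, also absent from WT, overlapped the first pair, the peak at 20984 bp only in part. The region at 33.8 kb held a WT Ikaros peak. H3K4me1 covered 5.95 kb in WT against 12.2 kb in IKDN, and RNAPII 4.73 kb in WT against 9.33 kb in IKDN. H3K27me3, which lay upstream of the gene and not over it, was lower, at 8.74 kb in WT against 2.71 kb in IKDN. H3K36me3 was nearly equal, at 24.5 kb and 24.4 kb. Hk1, the constitutive isoform, had H3K27ac at 7.98 kb in WT against 12.5 kb in IKDN, where a 3395 bp intronic region 29.9 kb inside the gene was not listed in WT. RNAPII at Hk1 was not called, at 2.34 kb in WT against 1.72 kb in IKDN.

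Hk3 differed from Hk2 in RNAPII and H3K4me1. RNAPII covered 13.1 kb in WT against 1.16 kb in IKDN, the lowest ratio among the members with an RNAPII peak in both lists. H3K4me1 covered 2.32 kb in WT against 0.927 kb in IKDN, and H3K4me2 3.26 kb in WT against 2.07 kb in IKDN. H3K27me3 was called higher by name, 2.35 kb in WT against 4.86 kb in IKDN, but not within the gene body, where it covered 1.58 kb and 2.39 kb, and H3K27ac was not called, at 1.93 kb in WT against 1.83 kb in IKDN. By assigned name Hk3 thus had more PAX5 peaks and less RNAPII, but most of the WT RNAPII lay outside the gene body. Within the gene body RNAPII covered 1.396 kb in WT against 0 kb in IKDN, and it was shorter in IKDN with 10 kb flanks too. PAX5 covered 0 kb of the gene body in both genotypes. Within 10 kb of the gene PAX5 covered 0 kb in WT against 0.32 kb in IKDN.

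In upper glycolysis the enzymes were again split. Gpi1, glucose-6-phosphate isomerase, had H3K27ac at 3.30 kb in WT against 6.17 kb in IKDN, including a 2026 bp IKDN region 25.0 kb upstream. Within 10 kb of the gene it covered 4.60 kb and 5.68 kb, and was not called. RNAPII covered 5.37 kb in WT against 11.0 kb in IKDN, or 8.29 kb and 19.5 kb within the gene body. The 3 phosphofructokinases, which catalyse the committed step, had shorter H3K27ac in IKDN. Pfkl, the liver type, covered 3.52 kb in WT against 2.16 kb in IKDN, or 5.56 kb and 3.90 kb within 10 kb of the gene, where it was not called. Pfkm, the muscle type, covered 3.93 kb in WT against 0.754 kb in IKDN by assigned name, but 3.93 kb and 3.70 kb within 10 kb of the gene, because the IKDN region was credited to the neighbour Senp1. RNAPII at Pfkm was called higher by name but covered 2.13 kb and 3.05 kb within the gene body, under the 1000 bp threshold. Pfkp, the platelet type, covered 16.1 kb in WT against 11.0 kb in IKDN, short of the threshold.

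Pfkp had the largest loss of enhancer marks among the members. H3K4me1 covered 17.4 kb in WT against 4.86 kb in IKDN, and H3K4me2 14.8 kb in WT against 4.97 kb in IKDN. A 2269 bp H3K27ac region 240.5 kb upstream was listed in WT only, with WT peaks of Ikaros, PAX5 and E2A on it. E2A, a factor of early B cell development, had 9 peaks at Pfkp in WT and 1 in IKDN. RNAPII covered 7.66 kb in WT against 3.75 kb in IKDN, or 17.1 kb and 11.2 kb within the gene body, and H3K27me3 covered 10.7 kb in WT against 500 bp in IKDN, none of it within the gene body. H3K36me3 went the other way, at 24.3 kb in WT against 37.4 kb in IKDN, or 41.4 kb and 46.8 kb within the gene body, where it was not called.

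Aldoc, the brain aldolase, had no assigned H3K27ac, H3K4me1, H3K4me2 or H3K4me3 in WT. Its H3K27ac covered 0 kb in WT against 2.94 kb in IKDN, H3K4me1 0 kb and 3.54 kb, and H3K4me2 0 kb and 2.52 kb. The H3K27ac region was centred 1749 bp upstream, over a WT Ikaros peak at 1329 bp and an IKDN LHX2 peak at 1041 bp upstream. RNAPII was not called there, at 5.46 kb in WT against 3.76 kb in IKDN. Aldoa, the main aldolase, was lower for RNAPII by name, 3.36 kb in WT against 0 kb in IKDN, but longer within the gene body, 3.36 kb and 5.28 kb, since the IKDN region was credited to Ppp4c. Tpi1, triose phosphate isomerase, was called in no mark, with H3K27ac at 1.77 kb in WT against 1.81 kb in IKDN.

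In lower glycolysis H3K27ac was called by name at 1 of 6 enzymes, Gapdh. Gapdh, the glyceraldehyde-3-phosphate dehydrogenase, had H3K27ac at 3.36 kb in WT against 5.21 kb in IKDN, where regions 8342 and 10081 bp from the start site lay beyond the gene. Within the gene body H3K27ac covered 2.72 kb and 3.05 kb and was not called, nor was it with equal numbers of top-scored peaks. RNAPII covered 18.1 kb in both, while H3K4me1 was shorter, 2.94 kb in WT against 1.14 kb in IKDN. Pgam1, phosphoglycerate mutase, had RNAPII at 4.29 kb in WT against 12.1 kb in IKDN, or 2.23 kb and 6.27 kb within the gene body. Its H3K36me3 was lower by name, 11.7 kb in WT against 0 kb in IKDN, but equal within the gene body at 5.09 kb and 5.10 kb. Eno1, enolase, had its H3K27ac, RNAPII and H3K36me3 regions listed under the name Eno1b. Within the Eno1 gene body RNAPII covered 5.59 kb in WT against 12.2 kb in IKDN, and H3K27ac 3.76 kb and 3.80 kb. Pgk1, phosphoglycerate kinase, had H3K27ac at 4.56 kb in WT against 3.17 kb in IKDN, not called, but 2.61 kb and 1.29 kb within the gene body, which passes both thresholds as lower. Pkm, pyruvate kinase, had RNAPII at 25.6 kb in WT against 28.0 kb in IKDN and was called for MED1 alone. Eno2, the neuronal enolase, had no assigned H3K27ac or RNAPII in either genotype.

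The lactate dehydrogenase genes differed in RNAPII in both genotypes. Ldha had RNAPII at 11.1 kb in WT against 18.8 kb in IKDN by name, called higher, but 7.98 kb and 11.1 kb within the gene body and 9.53 kb and 14.2 kb with flanks, called in neither. It had H3K27ac at 6.54 kb in WT against 5.65 kb in IKDN. Ldhb had neither H3K27ac nor RNAPII in any library. H3K27me3 assigned to Ldhb covered 1.28 kb in WT against 5.27 kb in IKDN, the IKDN total including a 4061 bp region across the start site. Within the gene body it covered 1.19 kb and 2.03 kb, under the threshold. Its H3K4me2 covered 0 kb in WT against 1.57 kb in IKDN. Ldhb thus had more PAX5 peaks, without RNAPII.

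Among pentose phosphate enzymes, which make NADPH and ribose, H3K27ac was called by name at none of 4. Within the Tkt gene body it covered 2.65 kb and 4.85 kb, past both thresholds as higher. Pgd, the phosphogluconate dehydrogenase, had RNAPII at 1.61 kb in WT against 5.21 kb in IKDN. Its H3K36me3 was higher by name, 16.4 kb in WT against 25.5 kb in IKDN, but 15.6 kb and 15.3 kb within the gene body. Tkt, transketolase, was lower for H3K36me3 by name, 10.2 kb in WT against 0 kb in IKDN, against 22.3 kb and 22.0 kb within the gene body, because the region was credited to Mir3076. RNAPII over the Tkt gene body covered 14.2 kb in WT against 22.8 kb in IKDN. Taldo1, transaldolase, was called for H3K27me3 among the marks, 0.654 kb in WT against 2.98 kb in IKDN, none of it within the gene body. Regions over G6pdx, which starts the pathway, carried the name Ikbkg, and within its gene body H3K27ac covered 1.19 kb in WT against 1.35 kb in IKDN.

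Pyruvate dehydrogenase turns pyruvate into acetyl-CoA in mitochondria, and its kinases switch it off. Pdk1 had RNAPII at 4.07 kb in WT against 9.23 kb in IKDN. Its H3K36me3 was 16.6 kb in WT against 58.9 kb in IKDN by name, of which 1 IKDN region of 41890 bp was centred 35.9 kb upstream, and 12.9 kb and 17.0 kb within the gene body. At 6.4 kb upstream of Pdk1 an IKDN LMO2 peak, an IKDN PAX5 peak and a WT Ikaros peak overlapped within H3K27ac of both genotypes. Pdk3, another kinase of the complex, had H3K27me3 at 47.3 kb in WT against 19.4 kb in IKDN, and H3K36me3 at 3.70 kb in WT against 1.88 kb in IKDN. Pdha1, the catalytic subunit, had H3K27me3 at 6.95 kb in WT against 13.4 kb in IKDN, which lay almost wholly outside the gene body (0 and 500 bp within it). Its RNAPII was not called, at 12.5 kb in WT against 14.3 kb in IKDN.

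The flux regulators Pfkfb3 and Pfkfb4 make fructose-2,6-bisphosphate, the activator of phosphofructokinase. Pfkfb3 had the longest RNAPII coverage of all members, 76.4 kb in WT, and 37.7 kb in IKDN, with H3K27ac at 11958 bp in WT against 16903 bp in IKDN, not called. Pfkfb4 had H3K27ac at 2.84 kb in WT against 5.61 kb in IKDN and RNAPII at 1.20 kb and 2.46 kb. The isoforms thus went opposite ways for RNAPII. Txnip kept its promoter: PAX5 lay 168 bp upstream of the start in WT and 137 bp upstream in IKDN, Ikaros 22 bp downstream in WT and LMO2 38 bp upstream in IKDN. A second WT H3K27ac region 6542 bp upstream, with PAX5 and Ikaros peaks on it, was absent from IKDN. H3K27ac of Txnip covered 6.76 kb in WT against 4.97 kb in IKDN, not called, and RNAPII 6.45 kb in WT against 8.54 kb in IKDN, not called. H3K4me1 was lower, 4.75 kb in WT against 1.35 kb in IKDN, and 12.02 kb against 8.42 kb within 10 kb of the gene, short of the threshold.

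Of the remaining marks, H3K4me3 differed at the fewest members. H3K4me3 lay within 2500 bp of the start site at 29 members in WT, against 48.2% of all gene names, and at 30 in IKDN, against 47.3%. It was called higher at 1, Slc2a3, against 3.11% of all gene names, and lower at 0, against 6.57%. H3K4me1 was higher at 4 (background 15.5%) and lower at 7 (background 14.4%), and H3K4me2 higher at 3 (10.7%) and lower at 2 (9.18%). Among the lower H3K4me1 genes were Pfkp, Gapdh, Eno1 and Txnip. For H3K36me3, 5 members were higher (16.5%) and 3 lower (5.47%), 2 of those 3 being Pgam1 and Tkt, whose gene bodies were covered nearly equally. H3K27me3 was higher at 5 (17.8%) and lower at 7 (20%), with no region in either genotype at 15 members.

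**Figure D3:**
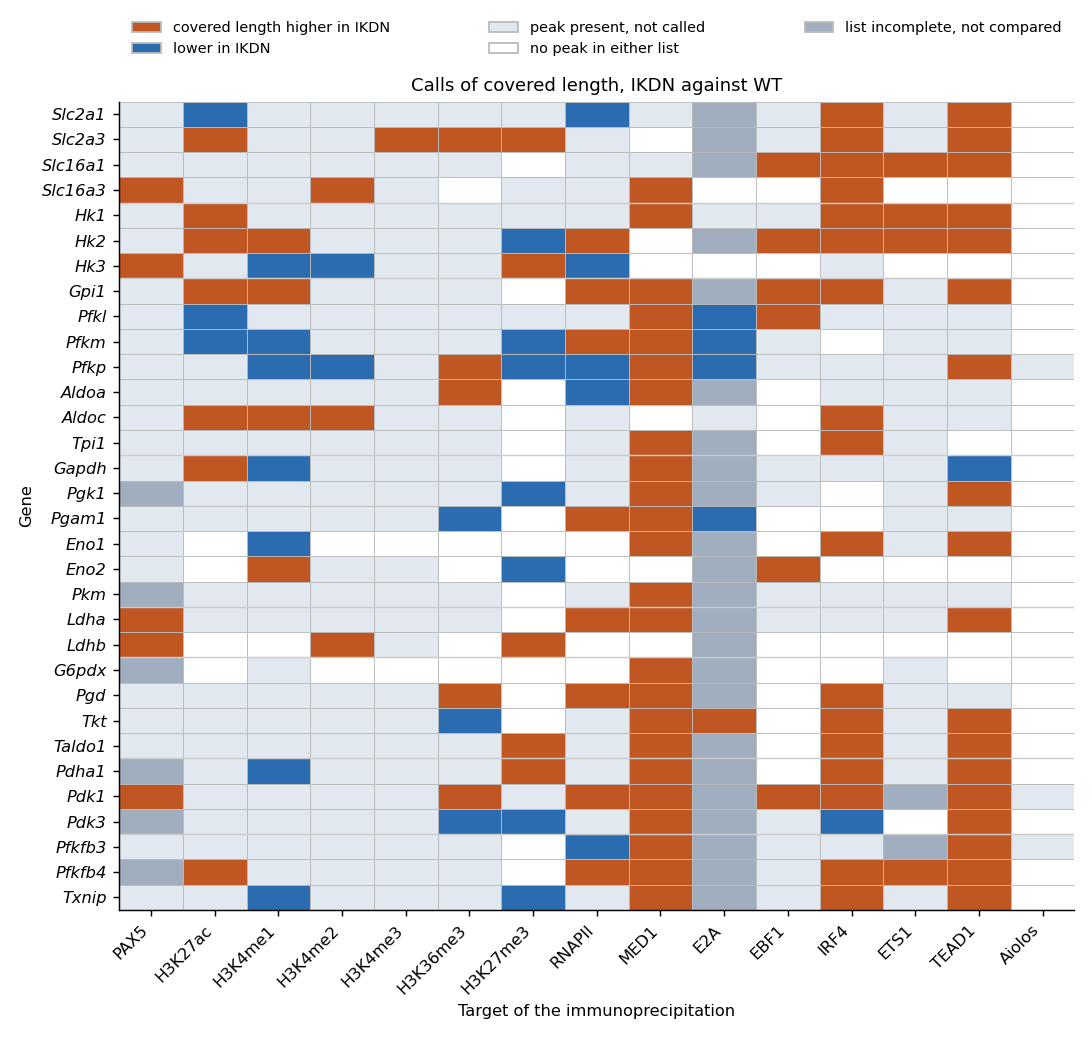
Call of each member (rows, by role) for each of the 15 targets mapped in both genotypes (columns): higher in IKDN, lower in IKDN, not called, or not compared because a list was incomplete there. Hk2, Gpi1 and Pdk1 are each called higher for 7 targets, and MED1 is higher at 24 of 32 members, against 42.3% of all gene names. For TEAD1 these genes have equal peak numbers in both genotypes (5, 2 and 2), so that call follows the wider IKDN peaks. The tally of 7 has no share over all gene names beside it.

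Mediator was the target with the most calls. MED1 was higher at 24 of 32 members, against 42.3% of all gene names, and lower at 0, against 5.25%. A MED1 peak in either list was present at 26 members, and among gene names with one the background was 75.3% higher and 9.35% lower. At the members its peaks went from 15 in WT to 41 in IKDN, while the whole lists went from 12070 to 24219. The 8 members not called were Slc2a1, Slc2a3, Slc16a1, Hk2, Hk3, Aldoc, Eno2 and Ldhb. Of these, Slc2a1 and Slc16a1 had MED1 in both genotypes and the other 6 had none. With equal numbers of top-scored peaks, 15 members were higher and 1 was lower. The share of all gene names at that setting is not given here. Whether list size or occupancy set these counts was not tested.

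Of the other B lineage factors, E2A could be compared on 9 members, since the WT list held no peak on chromosomes 3 to 9 and X and stopped at 157.1 Mb of chromosome 2. It was lower at 4, Pfkl, Pfkm, Pfkp and Pgam1 (background 14.8%), and higher at 1, Tkt (3.12%). Among the top-scored 50% of the lists it was lower at 1 and higher at 0, and with equal numbers of top-scored peaks lower at 1. E2A peaks were 176 bp wide in WT and 178 bp in IKDN, so a difference of 1 peak could not be called. EBF1 was higher at 6 (26.3%), among them Pdk1 with 1 peak in WT and 4 in IKDN, and lower at 0 (1.93%). Its peaks were 190 bp wide in WT and 242 bp in IKDN, so 1 gained peak passed the 200 bp threshold and 1 lost peak did not. By number of peaks EBF1 was higher at 6 and lower at 2, and with equal numbers of top-scored peaks higher at 3 and lower at 1. IRF4 was higher at 17 (33%), among them Hk2 with 1 peak in WT and 5 in IKDN, and lower at 1, Pdk3 (1.25%). Its peaks were 168 bp wide in WT and 230 bp in IKDN, with the same asymmetry. By number of peaks it was lower at 3, with equal numbers of top-scored peaks 8 were higher and 3 lower, and among the top-scored 50% 5 were higher and 0 lower. ETS1, compared on 30 members because its WT list held no chromosome 2, was higher at 4 (12.4%), Slc16a1, Hk1, Hk2 and Pfkfb4, and lower at 0 (2.09%). ETS1 peaks were 178 bp wide in WT and 176 bp in IKDN, so here too a difference of 1 peak could not be called. Aiolos, a relative of Ikaros, was higher at 0 (0.771%) and lower at 0 (1.39%), with a peak at 3 members in either list. Its peaks were 114 bp wide in WT and 112 bp in IKDN, so a difference of 1 peak could not be called. By number of peaks Aiolos was higher at 1 and lower at 2. The backgrounds given for these factors belong to covered length in the full lists. None is given here for the other settings, so those counts cannot be set against all gene names. The labels give the same antibody product for PAX5, IRF4 and the IKDN E2A library, another product for WT E2A, IKDN ETS1 and LHX2, and a further one for H3K4me1 and IKDN H3K4me3, so the target of these lists rests on the sample titles.

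Factors of epithelial and stem cell programmes were TEAD1, mapped in both genotypes, and LHX2 and LMO2, mapped in IKDN only. TEAD1 had a peak at 25 members in WT and at 26 in IKDN. TEAD1, the DNA-binding partner of YAP, was higher at 18 of 32 members (background 45.7%) and lower at 1, Gapdh (4.13%). Its peaks were 176 bp wide in WT and 276 bp in IKDN, so equal numbers already give a fold over 1.5. By number of peaks it was lower at 3 and higher at 10, among them Slc2a1 with 1 peak in WT and 5 in IKDN. With equal numbers of top-scored peaks 10 members were higher and 5 lower. No background is given for these settings. LHX2, a LIM homeobox factor, had a peak at 17 of 32 members (43.5% of all gene names) and a promoter peak at 12 (19%). LMO2, a bridging protein of blood stem cells, had a peak at 13 (30.8%) and a promoter peak at 9 (11.2%). Of the 17 LMO2 peaks of members, 12 overlapped a WT Ikaros peak, 70.6% (exact 95% binomial interval 44.0 to 89.7), against 55.7% for other genes. For LHX2 it was 10 of 29, 34.5% against 37.2%.

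Related genes outside the set showed no common direction for H3K27ac. Over all gene names 14.1% were higher and 10.8% lower. Of 30 further enzymes and carriers of glucose and pyruvate metabolism, 6 were higher and 4 lower. The largest difference was at Rpia, a pentose phosphate isomerase, with 124.8 kb in WT against 20.2 kb in IKDN, which included regions up to 718.6 kb away and was 7.13 kb and 2.97 kb within 10 kb of the gene. Of 29 regulators of glucose metabolism, 5 were higher and 2 lower. Among them Hif1a, the hypoxia factor, had 8.26 kb in WT against 14.7 kb in IKDN by name but 4.48 kb and 2.52 kb within 10 kb of the gene.

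As a check of the cells, H3K27ac lay at 9 of 10 B lineage markers in WT (range 0 to 39.7 kb, with Vpreb1 at 0) and at 7 in IKDN (0 to 21.7 kb, with Vpreb1, Cd79a and Rag1 at 0). It was lower at 5 of them and higher at 0, where 10.8% of all gene names were lower and 14.1% higher. Cd79a, called lower by name, covered 22.1 kb in WT against 21.2 kb in IKDN within 10 kb of the gene. Of 10 stromal markers, 7 had H3K27ac in WT (0 to 6.45 kb, with Col1a2, Lum and Dcn at 0) and 5 in IKDN (0 to 15.9 kb). By name 1 was higher and 3 were lower. The higher one, Cxcl12, held the 15.9 kb, which was credited from regions up to 263.3 kb away. Within 10 kb of the gene Cxcl12 covered 1.497 kb in WT against 0.5 kb in IKDN, the other direction and under the threshold. The 3 lower markers, Prrx1, Col1a1 and Pdgfra, were shorter in IKDN within 10 kb too. The part of other cells in the members' differences was not tested.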

How the data were processed

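The authors deposited peak lists, tabulated with the nearest gene, per the file headers; BWA, STAR, HOMER and bcl2fastq 1.8.3 appear, without roles, in the submitters' processing notes beside the builds mm9 and mm10. Of the start sites the lists imply, 98.9% lay within 1000 bp of their gene in GRCm38 (mm10), the build used here. The deposited peak score has no stated scale or depth and served only to rank peaks within a list; the authors' distance to the start site was used as given. Read depth is not given in the sources used here.

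Peaks were assigned by the deposited gene name, merged and summed in bp with Python 3.11.15, pandas 2.3.3, numpy 2.4.6, scipy 1.17.1 and matplotlib 3.10.9. The calls were checked on simulated data. A list without peaks over more than 10 Mb of a chromosome that the other lists cover was not compared there. Groups came from the sample titles. Alternatives were the top-scored 50% of each list, equal peak numbers, gene body with 10 kb flanks and a fold of 2. Peak numbers and gene bodies without flanks were added after seeing the data. All 32 members are described; of other lists, up to 3 called genes with the largest H3K27ac gain and loss were eligible for naming. Neighbours named as the assigned gene were chosen after their values were seen. The members and gene lists were chosen with earlier results of these data known.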

Additional observations from a re-analysis of the deposited data

How the results depend on the processing

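No paired analysis was possible because each genotype and target had 1 library. Calls per member are given as higher/lower in IKDN. The share of all gene names changes with the setting and is given here for H3K27ac and RNAPII only. For H3K27ac 13.5% were higher and 9.19% lower with the top-scored 50%, and 8.83% lower with 10 kb flanks. At a fold of 2 the shares were 10.5% and 7.75% for H3K27ac, and 14.1% and 12.1% for RNAPII. With the top-scored 50% of each list, PAX5 was lower at 1, H3K27ac higher at 4, H3K4me3 0/1, MED1 higher at 15, E2A 0/1, EBF1 higher at 3, IRF4 5/0, ETS1 higher at 2 and TEAD1 10/0, with LHX2 at 10 members, LMO2 at 5 and PAX5 on Ikaros 30.0%. Covered length then turned sign (IKDN minus WT, bp) at Ldha -40 and Pdk1 -20 for PAX5, Slc2a1 296 for H3K27ac, Txnip -139 for MED1, Hk2 -180 for ETS1, and Pfkp -152, Pdk3 -176 and Txnip -176 for TEAD1. With equal peak numbers, PAX5 was lower at 1, MED1 15/1, E2A lower at 1, EBF1 3/1, IRF4 8/3, ETS1 2/2 and TEAD1 10/5; signs turned at Pdk1 -80 for PAX5, Txnip -139 for MED1, Hk2 -4 for ETS1, and Gpi1 -76, Pfkp -504, Pdk1 -76, Pdk3 -352 and Pfkfb4 -176 for TEAD1. Within the gene body and 10 kb flanks, PAX5 was lower at 1, H3K27ac lower at 1, H3K4me3 higher at 0, H3K36me3 lower at 1, IRF4 lower at 0 and ETS1 higher at 2; signs turned at Pgam1 605 and Pgd -77 for H3K36me3, Aldoa 2650 for RNAPII, Slc16a1 -2 for ETS1 and Pdk1 -176 for TEAD1. Within gene bodies alone, H3K36me3 was lower at 1, and signs turned at Pgam1 12 and Pgd -295 for H3K36me3 and Aldoa 1923 for RNAPII. At a fold of 2, PAX5 was higher at 3, H3K27ac 2/1, H3K4me2 lower at 1, H3K4me3 higher at 0, H3K36me3 higher at 2, RNAPII higher at 5 and TEAD1 lower at 0. By number of peaks, PAX5 was higher at 9, MED1 lower at 1, E2A higher at 2, EBF1 lower at 2, IRF4 lower at 3, ETS1 higher at 10, TEAD1 10/3 and Aiolos 1/2, and Pfkp turned by -1 peak for MED1. Covering 50% of the PAX5 peak gave 30.8% on Ikaros. Beyond the shift of wide regions between neighbours, the cause was not tested. Of the single member calls, 76 kept direction and call with the top-scored 50%, while 57 were weaker and 8 reversed. With equal numbers 104 were kept, 29 were weaker and 8 reversed. With flanks the counts were 108, 28 and 5. At a fold of 2, 107 were kept and 34 were weaker.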

Other observations

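Genes of the citrate cycle, which burns the pyruvate that glycolysis makes, were a list outside the set where RNAPII pointed one way. RNAPII was higher in IKDN at 10 of 13 genes and lower at 0, where 17.4% of all gene names were higher and 15.9% lower. Among gene names with an RNAPII peak in either list 27.2% were higher and 24.8% lower. The list includes Pcx, pyruvate carboxylase, which feeds the cycle and is not a step of it. Cs, citrate synthase, covered 3.81 kb in WT against 12.8 kb in IKDN. Fh1, fumarate hydratase, covered 1.35 kb in WT against 13.9 kb in IKDN, and Sdhb, a subunit of succinate dehydrogenase, 0.915 kb and 7.94 kb. Idh2 and Mdh2, dehydrogenases of the cycle, covered 6.49 kb and 5.17 kb in WT against 15.9 kb and 12.4 kb in IKDN.

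Within gene bodies alone the count was again 10 higher and 0 lower, where 12.9% of all gene names were higher and 12.4% lower. The genes were not all the same, since Suclg1 was no longer called there and Pcx, not called by name, was. By either measure the count stood as follows in the other settings by name. By name the count was 10 and 1 with the top-scored 50% of each list, where 16.7% of all gene names were higher. With equal peak numbers and at a fold of 2 it was 10 and 0, where 17.3% and 14.1% were higher. H3K27ac was higher at 2 of the 13 and lower at 2, against 14.1% and 10.8% of all gene names. This list was read after its values were seen, with 1 library per genotype.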
